A study of Mus musculus with 12 samples.

Results

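The genes described here are the subunits of the oxidative phosphorylation (OXPHOS) complexes, 87 nuclear genes and the 13 protein-coding genes of mitochondrial DNA, together 100 of the 27179 genes counted. Nuclear members were taken by symbol: Nduf followed by a, b, c, s or v and a number for complex I, Sdha to Sdhd for complex II, Uqcr genes and Cyc1 for complex III, Cox4 to Cox8 genes for complex IV, and Atp5 genes for complex V. The rule uses symbols only, and 5 pseudogenes whose symbols match were left out. Ndufa4 is placed with complex I by its symbol, although its protein is known to associate with complex IV. The acyl carrier protein Ndufab1 and the assembly factors do not meet the rule and appear under other lists.

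The RNA came from MC38-idAdpgkG cells, a mouse colon carcinoma line of the C57BL/6 strain that carries a stably transfected, inducible and degradable Adpgk(R304M) construct fused to turboGFP. Every group received 20 ng/mL mouse IFNg (interferon gamma) for 51 h: the control group received nothing else, the doxycycline group also 1 µg/mL doxycycline for 51 h, the dTAG-13 group 1 µM dTAG-13 for 3 h after the first 48 h, and the last group both agents on those schedules. Doxycycline switches the construct on, and dTAG-13 is a degrader molecule that brings a tagged protein to a ubiquitin ligase. Per the labels, the 3 poly(A) libraries of a group are technical replicates of a single sample, so each group is 1 culture, n = 3 libraries, and every p-value measures only the spread between libraries. Effects of doxycycline itself and of the protein it induces come together in this design and cannot be told apart. In bulk RNA, fewer cells of a type and less RNA per cell cannot be told apart.

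Complexes I to IV pass electrons from NADH and succinate to oxygen, and complexes I, III and IV pump protons across the inner mitochondrial membrane. Complex V, the ATP synthase, uses the resulting gradient to make ATP. Complex II is built from nuclear genes alone, whereas the other complexes combine nuclear subunits with core subunits encoded in mitochondrial DNA, which is transcribed into long RNAs that are cut into single mRNAs, rRNAs and tRNAs.

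Several mitochondrial genes overlap their neighbours, which bears on how their reads can be assigned. The end of mt-Atp8 and the start of mt-Atp6, both subunits of complex V, share 43 bases at chrM:7927-7969 (mm10, plus strand, GENCODE transcript sequence). The shared stretch is shown because a read from it belongs to both genes, and the capitals mark the start codon of mt-Atp6.
mt-Atp8 and mt-Atp6 overlap: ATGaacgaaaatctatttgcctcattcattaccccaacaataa
The complex I genes mt-Nd4l and mt-Nd4 share 7 bases in the same way, at chrM:10167-10173. mt-Nd6 is the only member encoded on the opposite strand, and mt-Nd5 overlaps it. The strand setting of the counting is not given in the sources used here, so reads from overlapping genes cannot be told apart, and values of these pairs are uncertain.

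The 12 libraries held 22165538 to 32809573 counted reads, and 12910 genes passed the expression filter. Adpgk, the gene of the construct, was counted at 162, 158 and 162 CPM in the control libraries, 1343, 1316 and 1355 with doxycycline, 177, 182 and 185 with dTAG-13 and 1378, 1351 and 1379 with both agents. The doxycycline-treated libraries were therefore far above the others, as their labels say. None of 9 epithelial markers reached 1 CPM (counts scaled to the library size, which edgeR adjusts by the trimmed mean of M-values) in the required 3 libraries, and Epcam had 0 reads in every library, so the defining epithelial markers were absent or near 0 in this carcinoma line. The summed level of 6 mesenchymal markers, 4 of which reached 1 CPM, was 2282 to 2340 CPM in control, 2044 to 2061 with doxycycline, 1652 to 1672 with dTAG-13 and 1430 to 1471 with both. Vim and Fn1 made up nearly all of this sum. Cdh2 fell with them, while Pdgfrb was higher with doxycycline, at 8.42, 8.44 and 8.49 CPM against 5.11, 5.51 and 5.22 in control. Col1a1 and Col1a2 stayed under 1 CPM. The sum moved with the treatments, and its part in the results was not tested. None of 6 leukocyte markers reached 1 CPM.

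All 13 mitochondrial genes and 79 of the 87 nuclear genes passed the filter. Per kilobase of transcript, mitochondrial members had a median level of 1121 CPM per kb, from 656 for mt-Atp8 to 3895 for mt-Co1, the catalytic subunit of cytochrome c oxidase. The 78 nuclear members with a known transcript length had a median of 99.1 CPM per kb, from 1.02 for Sdhd to 893 for Atp5b, the catalytic beta subunit of ATP synthase. Nuclear medians by complex were 74.8 CPM per kb for complex I, 87.7 for complex II, 165 for complex III, 208 for complex IV and 197 for complex V.

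Together the 87 nuclear genes took 1.118, 1.105 and 1.075% of all reads in the control libraries and 1.058, 1.076 and 1.081% with doxycycline. Their share was 1.294, 1.241 and 1.267% with dTAG-13 and 1.351, 1.321 and 1.330% with both agents. The 6 libraries with dTAG-13 lay above the 6 without it, with no overlap. The 13 mitochondrial genes took 2.02, 2.11 and 2.29% of reads in control, 2.17, 2.17 and 2.07% with doxycycline, 2.04, 2.13 and 2.05% with dTAG-13 and 2.95, 3.07 and 2.87% with both. For them the libraries with both agents stood above all 9 others, which overlapped each other. Mitochondrial reads per nuclear read were 1.81, 1.91 and 2.13 in control, 2.05, 2.02 and 1.91 with doxycycline, 1.58, 1.72 and 1.62 with dTAG-13 and 2.19, 2.32 and 2.16 with both. This ratio was lowest in the dTAG-13 group and highest in the group with both agents, and neither group overlapped another. With 3 libraries against 3, an exact two-sided permutation test cannot go below p = 0.1, so no test of these sums is given.

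**Figure D1:**
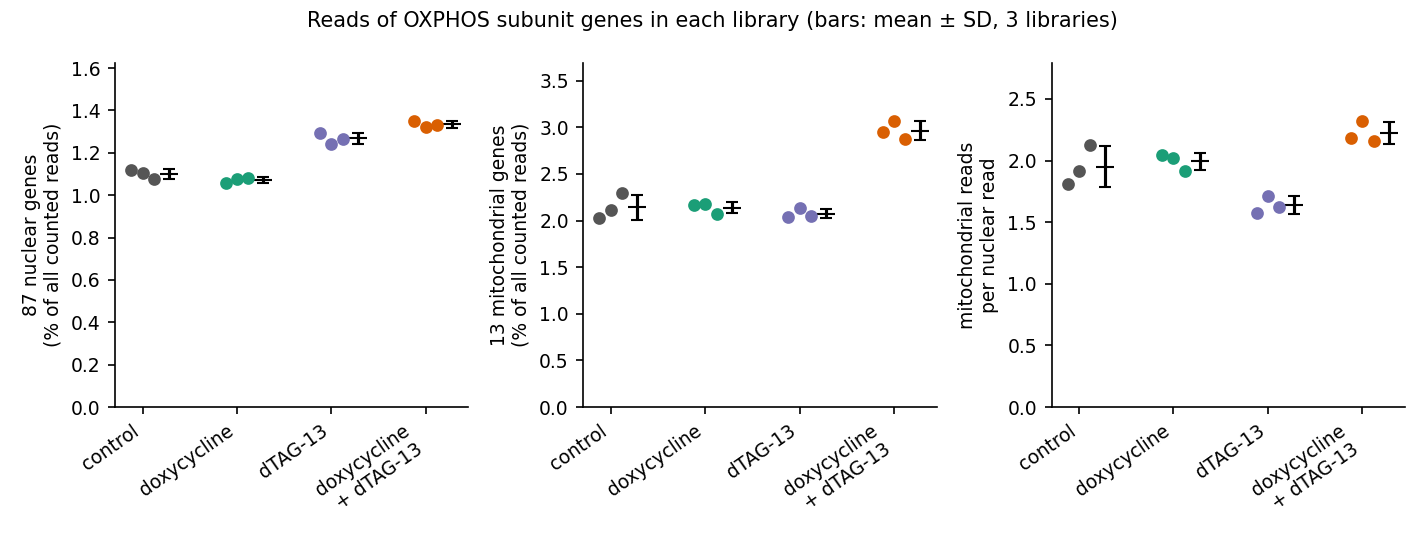
Share of all counted reads in each library for the 87 nuclear genes (left) and the 13 mitochondrial genes (middle), in percent, and mitochondrial reads per nuclear read (right). Each point is 1 of 3 libraries of a group, and the bar beside them is the mean ± SD. Nuclear shares are higher in both groups with dTAG-13, and mitochondrial shares are highest in the 3 libraries with both agents.

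The comparisons ask what each agent did with and without the other. A gene is called when its Benjamini-Hochberg adjusted p from edgeR's quasi-likelihood test over all 12910 tested genes is under 0.05, and fold changes are on the log2 scale with the standard error (SE). After dTAG-13 alone, 59 nuclear members rose and 5 fell of 79 tested, while 1 mitochondrial member rose and 7 fell of 13. Of all tested genes, 62.1% were called in this comparison, 30.0% higher and 32.1% lower. The median log2 fold change was 0.21 over the nuclear members, -0.22 over the mitochondrial members and 0.02 over all tested genes. Without control replicate 3 the mitochondrial median was -0.13.

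Where doxycycline was present, dTAG-13 came with a rise in both sets. Against doxycycline alone, 72 nuclear members rose and 2 fell, and 12 mitochondrial members rose and none fell, where 64.1% of all tested genes were called, 30.7% higher and 33.4% lower. The medians were 0.46 for nuclear members, 0.47 for mitochondrial members and 0.003 for all tested genes. These 2 dTAG-13 comparisons share no library: 58 nuclear members rose in both, which is 58 of 59 in the first and of 72 in the second. How many of all tested genes rose in both was not counted, and both comparisons moved with transcript length, as given below. Sdha and Ndufa10 fell in both, and Uqcrc1 fell in the first and rose in the second. Among mitochondrial members, mt-Co3 alone rose in both, and all 7 that fell after dTAG-13 alone rose after dTAG-13 in doxycycline-treated cells.

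Doxycycline alone gave mostly lower nuclear values, of which 14 of 79 were positive, and mitochondrial changes of mixed direction. Against control, 2 nuclear members rose and 20 fell, and 3 mitochondrial members rose and 4 fell, where 33.5% of all tested genes were called, 14.8% higher and 18.7% lower. The medians were -0.07 for nuclear and 0.10 for mitochondrial members, and the latter was 0.05 without control replicate 1. Scaled by total counts alone, without the trimmed mean of M-values, 5 nuclear members were higher and 9 lower, and 4 mitochondrial members were higher and 3 lower. That scaling ended the doxycycline calls of mt-Co1, Sdha, Ndufa8, Ndufa12, Uqcrq, Cox4i1 and Atp5b among the genes described below. The nuclear count of 22 was 14 without doxycycline replicate 1. With dTAG-13 present, doxycycline went with higher levels in both sets: 40 nuclear members and all 13 mitochondrial members rose and none fell, where 20.4% of all tested genes were called, 10.7% higher and 9.64% lower. The medians were 0.14 for nuclear and 0.72 for mitochondrial members. These 2 doxycycline comparisons share no library: Ndufa6 alone of the nuclear members rose in both, and 10 fell in the first and rose in the second. Of the mitochondrial members, mt-Atp6, mt-Nd2 and mt-Nd3 rose in both, and mt-Co1, mt-Cytb, mt-Nd5 and mt-Nd6 fell in the first and rose in the second. The overlap of these comparisons over all tested genes was not counted.

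The interaction tests whether the dTAG-13 effect differed between cells with and without doxycycline. It was positive and called for 45 nuclear and 11 mitochondrial members and negative for none, where 22.9% of all tested genes were called, 13.2% positive and 9.64% negative. The median difference was 0.20 for nuclear members and 0.69 for mitochondrial members. Scaled by total counts alone, the nuclear count was 26 positive and 1 negative. That scaling also moved the split of all tested genes, from 3877 higher and 4144 lower to 5256 and 3115 after dTAG-13 alone, from 1917 and 2414 to 2546 and 1607 with doxycycline alone, from 1386 and 1244 to 926 and 2132 for both agents against dTAG-13, and from 1705 and 1245 to 818 and 2424 in the interaction.

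**Figure D2:**
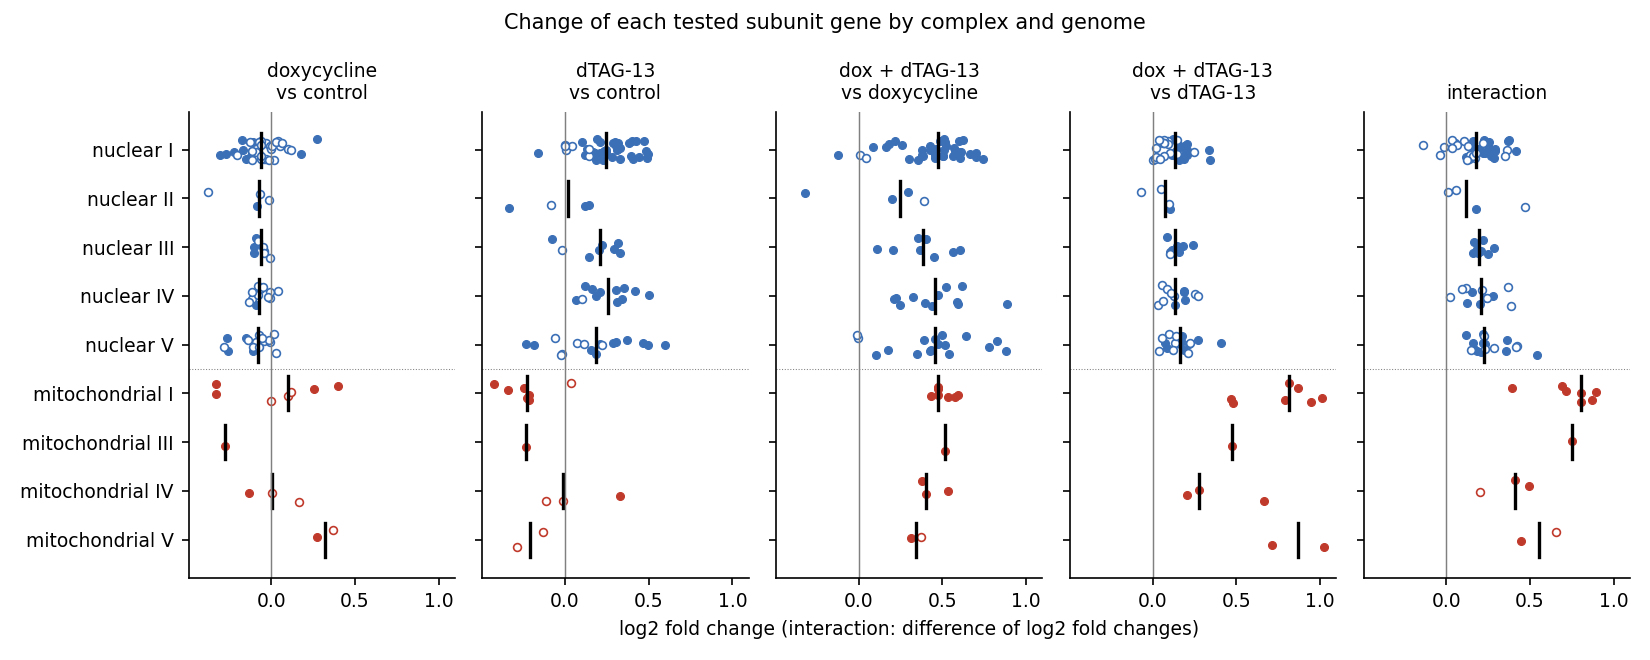
Log2 fold change of each tested subunit gene in the 4 comparisons and the interaction, by genome and complex (blue, 79 nuclear genes; red, 13 mitochondrial genes). Filled points passed the test, open points did not, and the black line is the median of the lane. After dTAG-13 alone most nuclear points lie above 0 and most mitochondrial points below it, and with doxycycline present both lie above 0.

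The order of the 2 sets depended on the comparison. The nuclear median minus the mitochondrial median was 0.43 after dTAG-13 alone, -0.02 after dTAG-13 in doxycycline-treated cells, -0.17 for doxycycline against control, -0.58 for both agents against dTAG-13 alone and -0.49 for the interaction. These differences are descriptions with no test. Without control replicate 3, which had the highest mitochondrial share of its group, the difference was 0.33 after dTAG-13 alone and -0.40 in the interaction.

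Transcript length moved with the results of every comparison that involves dTAG-13. Subunit mRNAs are short: the median was 744 bases for the 78 nuclear members with a length and 784 for mitochondrial members, against 2608 for the 12450 tested genes with one. Of these members, 66 nuclear and 12 mitochondrial lay among the shortest 25% of all tested genes, from 66 to 1604 bases. In that range the median of all genes was 0.21 after dTAG-13 alone and 0.31 after dTAG-13 in doxycycline-treated cells, beside 0.23 and 0.46 for the nuclear members in it. Of all genes in it, 50.2% were called higher and 9.12% lower in the first comparison, and 60.6% and 5.97% in the second. Of the 66 nuclear members in it, 53 were higher and 1 lower in the first, and 63 higher and 0 lower in the second. The longest 25% of all genes had medians of -0.22 and -0.30. For both agents against dTAG-13 alone, the shortest 25% had a median of 0.06, with 18.4% called higher. The nuclear members in it had a median of 0.14, with 34 of 66 called higher. In the interaction these medians were 0.10 and 0.21, and 21.7% of the shortest genes were called positive.

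Within the nuclear set, the 35 members under 700 bases had medians of 0.29 and 0.51 in those comparisons, the 28 members from 700 to under 1500 bases 0.18 and 0.43, and the 15 members of 1500 bases or more 0.04 and 0.16. In the same order of length, the medians were 0.15, 0.14 and 0.07 for both agents against dTAG-13 alone and 0.24, 0.20 and 0.16 in the interaction. Across the 78 nuclear members, which share their libraries, Spearman's rho of length with the log2 fold change was -0.48 after dTAG-13 alone, -0.52 in doxycycline-treated cells, -0.43 against dTAG-13 alone and -0.32 in the interaction. Base composition differed too: median GC content was 51.6% for nuclear members, 37.1% for mitochondrial members and 50.3% for all tested genes with a length. When the trend of all genes with length and GC was removed, 16 nuclear members were called higher and 17 lower after dTAG-13 alone, with a median of -0.0004, and all 13 mitochondrial members were called lower, with a median of -0.74. Of all 12910 tested genes, 2935 were then higher and 4006 lower. The same correction left 38 nuclear members higher and 8 lower after dTAG-13 in doxycycline-treated cells, and 1 mitochondrial member higher and 5 lower, where 3130 of all tested genes were higher and 3490 lower. With it, 21 nuclear and 12 mitochondrial members were higher and none lower with both agents against dTAG-13 alone, where 1198 of all tested genes were higher and 1094 lower. In the interaction 21 nuclear and 10 mitochondrial members were positive and 1 nuclear member negative, where 1970 of all tested genes were positive and 895 negative. Beyond this correction, the part of length and GC in the dTAG-13 results was not tested.

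**Figure D3:**
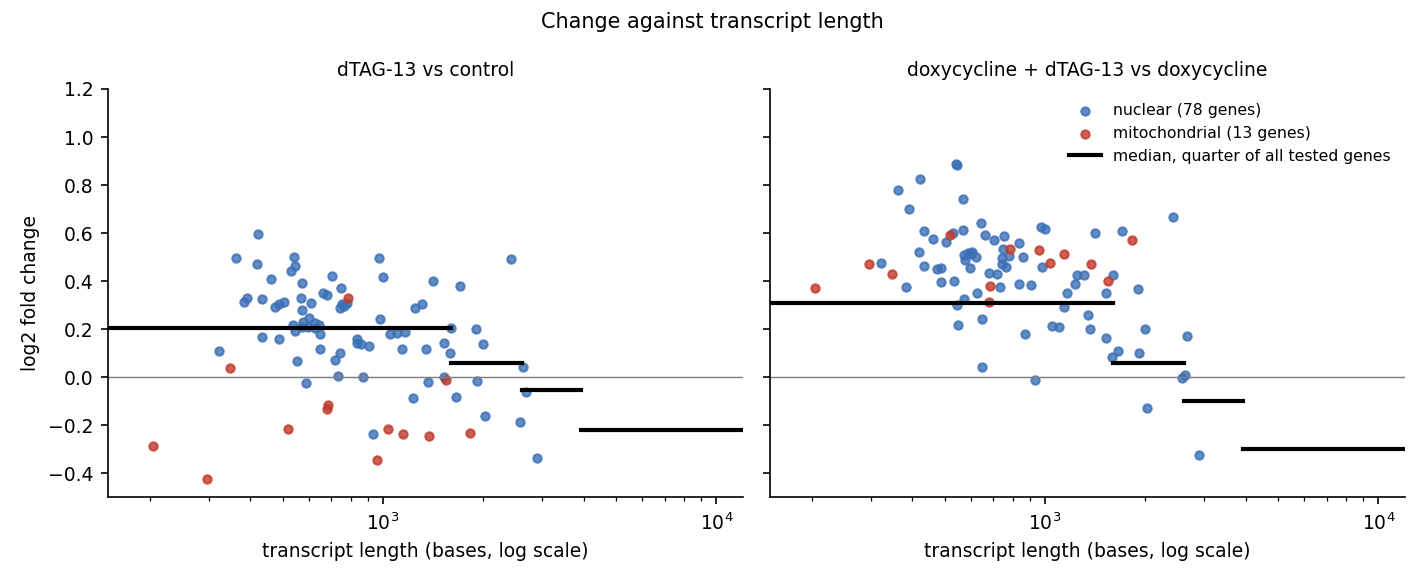
Log2 fold change against transcript length (bases, log scale) for 78 nuclear (blue) and 13 mitochondrial (red) genes, after dTAG-13 alone (left) and after dTAG-13 in doxycycline-treated cells (right). Black lines are the medians of all tested genes in 4 equal bins by length, which fall from 0.21 to -0.22 on the left and from 0.31 to -0.30 on the right. Mitochondrial points lie mostly below the line of the shortest bin on the left.

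The 7 mitochondrial genes of complex I encode its membrane arm, and 6 of them fell after dTAG-13 alone, where 32.1% of all tested genes fell. mt-Nd1 was counted at 1828, 1923 and 2044 CPM in the control libraries, 1950.0, 1952 and 1881 with doxycycline, 1512, 1545 and 1512 with dTAG-13 and 2798, 2826 and 2729 with both agents. The dTAG-13 libraries lay below all others and the libraries with both agents above all others, while control and doxycycline overlapped. Its log2 fold change was -0.34 ± 0.03 (SE) after dTAG-13 alone and 0.53 ± 0.03 after dTAG-13 in doxycycline-treated cells, an interaction of 0.87 ± 0.05 (edgeR adjusted p = 3.96e-07). mt-Nd2 was counted at 1333, 1377 and 1541 CPM in the control libraries, 1721, 1731 and 1627 with doxycycline, 1203, 1254 and 1201 with dTAG-13 and 2339, 2441 and 2284 with both agents. All 4 groups were separate for mt-Nd2, and it rose with doxycycline alone by 0.26 ± 0.05 (edgeR adjusted p = 0.00656). mt-Nd4l was counted at 183, 182 and 192 CPM in the control libraries, 203, 207 and 193 with doxycycline, 135, 139.8 and 141 with dTAG-13 and 278, 306 and 254 with both agents. Its 4 groups were separate too, and it had the lowest mitochondrial value after dTAG-13 alone, -0.42 ± 0.06, and the highest interaction, 0.89 ± 0.09 (edgeR adjusted p = 9.87e-05). Its doxycycline libraries lay just above control, but mt-Nd4l was not called for doxycycline alone. A fit of only the control and doxycycline libraries called it higher (0.13, edgeR adjusted p = 0.000566).

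The neighbour of that gene, mt-Nd4, was counted at 1161, 1217 and 1347 CPM in the control libraries, 1348, 1349.6 and 1294 with doxycycline, 1023, 1095 and 1029 with dTAG-13 and 1798, 1923 and 1818 with both agents. The dTAG-13 libraries were the lowest and those with both agents the highest, with -0.24 ± 0.06 after dTAG-13 alone and 0.47 ± 0.06 after dTAG-13 in doxycycline-treated cells. mt-Nd3 was counted at 256, 267 and 298 CPM in the control libraries, 356, 379.7 and 346 with doxycycline, 283, 282 and 277 with dTAG-13 and 502, 491 and 467 with both agents. Control and dTAG-13 overlapped, and the other 2 groups lay above them. It rose with doxycycline alone, by 0.40 ± 0.06 (edgeR adjusted p = 0.000669), and is the complex I member that did not pass the test after dTAG-13 alone, at 0.04 ± 0.06. mt-Nd5 was counted at 1657, 1734 and 1893 CPM in the control libraries, 1431, 1414 and 1352 with doxycycline, 1469, 1538 and 1497 with dTAG-13 and 2056, 2153 and 2034 with both agents. Its doxycycline libraries were the lowest, at -0.33 ± 0.05 against control (edgeR adjusted p = 0.000756), and those with both agents the highest. mt-Nd6, on the opposite strand, was counted at 339, 358 and 420.4 CPM in the control libraries, 296, 309 and 285 with doxycycline, 319.6, 329.5 and 313 with dTAG-13 and 446, 471 and 424 with both agents. Its groups stood in the same order, with doxycycline lowest and both agents highest, by a narrow margin over control. It fell with doxycycline alone, by 0.33 ± 0.08, and its fall after dTAG-13 alone, -0.21 ± 0.08, lost its call when doxycycline plus dTAG-13 replicate 1 or any of the 3 dTAG-13 libraries was left out (edgeR adjusted p up to 0.0977).

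mt-Cytb, the cytochrome b of complex III and its sole mitochondrial subunit, was counted at 4361, 4459.8 and 4950.1 CPM in the control libraries, 3809, 3883 and 3689 with doxycycline, 3857, 3961 and 3892 with dTAG-13 and 5347, 5686 and 5235 with both agents. Doxycycline alone and dTAG-13 alone both lay below control, at -0.27 ± 0.05 and -0.23 ± 0.05, and the libraries with both agents lay above it. The interaction was 0.75 ± 0.07 (edgeR adjusted p = 0.000106). Along the mitochondrial map the last 3 members, mt-Nd5, mt-Nd6 and mt-Cytb, fell with doxycycline alone, while mt-Nd2, mt-Atp6 and mt-Nd3 rose. mt-Co1, between mt-Nd2 and mt-Atp6 on that map, also fell.

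The 3 mitochondrial genes of complex IV encode its catalytic core, and all 3 rose after dTAG-13 in doxycycline-treated cells, where 30.7% of all tested genes rose. mt-Co1 was counted at 5592, 5807 and 6189.7 CPM in the control libraries, 5425, 5432 and 5179.6 with doxycycline, 5695, 5961 and 5784 with dTAG-13 and 6913, 7252 and 6978 with both agents. The libraries with both agents were the highest, dTAG-13 overlapped control, and doxycycline lay below control by a log2 fold change of -0.13 ± 0.04 (edgeR adjusted p = 0.0298). That call was lost without control replicate 2 or any 1 of the 3 doxycycline libraries (edgeR adjusted p up to 0.075). mt-Co2 was counted at 1291, 1486 and 1487 CPM in the control libraries, 1586, 1645 and 1559.6 with doxycycline, 1369, 1278 and 1285 with dTAG-13 and 2105, 2198 and 1934 with both agents. Its libraries with both agents lay above all others and control overlapped dTAG-13, and it rose against doxycycline alone by 0.38 ± 0.07 and against dTAG-13 alone by 0.67 ± 0.07. The doxycycline libraries of mt-Co2 lay above control, but it was not called for doxycycline alone. It was called higher there under scaling by total counts (0.20, edgeR adjusted p = 0.0464) and by DESeq2 (0.16, DESeq2 adjusted p = 0.0481). mt-Co3 was counted at 694, 731 and 813 CPM in the control libraries, 752, 745 and 749 with doxycycline, 909, 979 and 924 with dTAG-13 and 1078, 1124 and 1048 with both agents. It is the one mitochondrial member that rose after dTAG-13 alone, by 0.33 ± 0.06 (edgeR adjusted p = 0.000772), with no overlap with control, and its interaction of 0.20 ± 0.08 did not pass the test (edgeR adjusted p = 0.108). Its rise against dTAG-13 alone, 0.21 ± 0.06, lost its call on leaving out any of 4 libraries, replicates 1 and 2 with both agents and replicates 1 and 3 with dTAG-13 (edgeR adjusted p up to 0.0967).

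The overlapping complex V genes encode the proton channel subunit a (mt-Atp6) and a small accessory subunit (mt-Atp8). mt-Atp6 was counted at 2057, 2181 and 2433 CPM in the control libraries, 2741, 2687 and 2616 with doxycycline, 1944, 2139.8 and 1996 with dTAG-13 and 3336, 3379 and 3273 with both agents. It rose with doxycycline alone, by 0.27 ± 0.06 (edgeR adjusted p = 0.00822), and its dTAG-13 libraries overlapped control. mt-Atp8, the shortest member at 204 bases, was counted at 90.3, 106 and 141 CPM in the control libraries, 163, 145 and 124 with doxycycline, 101, 88.0 and 86.4 with dTAG-13 and 180.4, 221 and 159.8 with both agents. Its libraries with both agents overlapped those with doxycycline, and it passed the test only against dTAG-13 alone, at 1.02 ± 0.19 (edgeR adjusted p = 0.00561).

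Under the correction for length and GC, mt-Co3 and mt-Nd3 turned to -0.19 and -0.73 after dTAG-13 alone, and mt-Nd5 was the sole mitochondrial member still called higher after dTAG-13 in doxycycline-treated cells, at 0.20. The rises with both agents against dTAG-13 alone kept their calls for all mitochondrial members but mt-Co3, at 0.10. The mitochondrial rRNAs, which are no members and were chosen after their values were seen, come from the same genome. mt-Rnr2 was counted at 1221, 1232 and 1337 CPM in control, 1279, 1256 and 1349 with doxycycline, 962, 972 and 988 with dTAG-13 and 2222, 2302 and 2295 with both. It fell after dTAG-13 alone (-0.37 ± 0.04) and rose after dTAG-13 in doxycycline-treated cells (0.81 ± 0.04). mt-Rnr1 rose in the latter by 0.66 ± 0.14 and did not pass the test after dTAG-13 alone (0.15 ± 0.15). The libraries were made from poly(A) RNA, so rRNA reads count only the part captured that way.

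**Figure D4:**
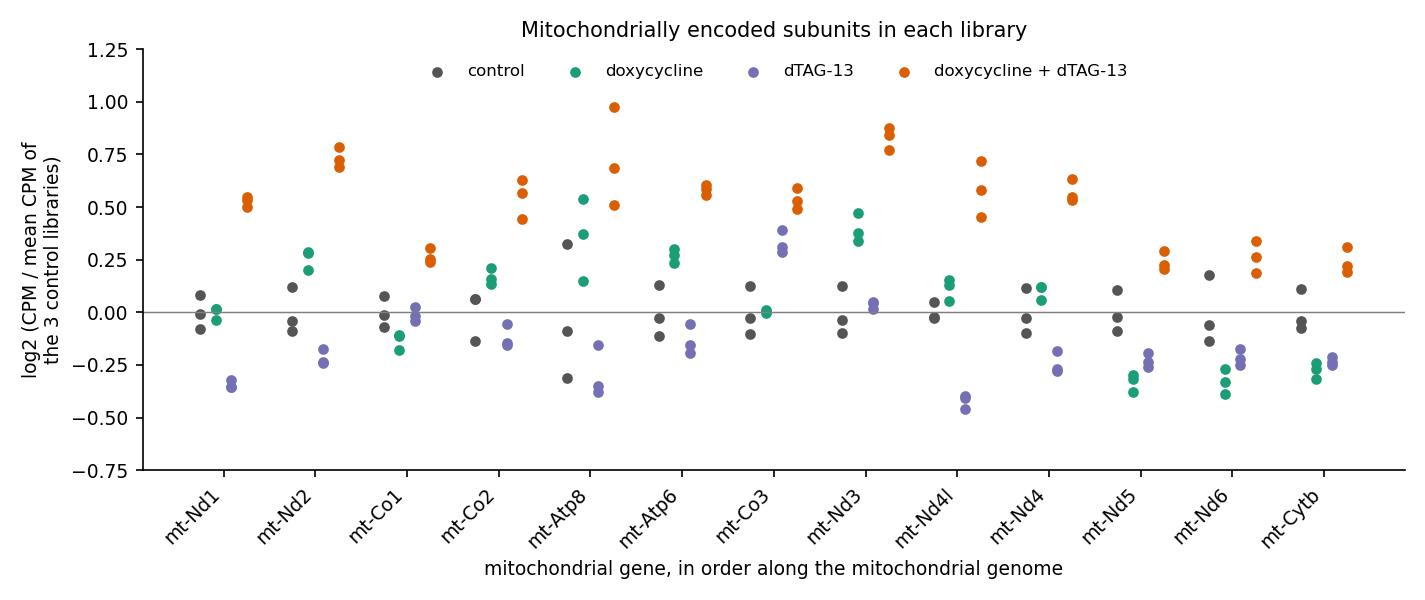
Level of each of the 13 mitochondrial genes in each library, as the log2 ratio of its CPM to the mean CPM of the 3 control libraries, in order along the mitochondrial genome. Each point is 1 library, coloured by group. The libraries with both agents are the highest for every gene except mt-Atp8, where groups overlap. The doxycycline libraries lie above control at mt-Nd2, mt-Atp6 and mt-Nd3, and also at mt-Co2 and mt-Nd4l, which were not called. They lie below control at mt-Co1, mt-Nd5, mt-Nd6 and mt-Cytb.

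Nuclear members often carry binding motifs of NRF1, ETS factors or YY1 in their promoters, textbook features of respiratory genes. RefSeq promoters (GRCm38.p6, 250 bases before to 50 after the start) were found for 69 of the 87 nuclear members. The NRF1 motif, GCGCA then any base then GCGC, searched on both strands as were the others, was in 24.6% of these, against 5.19% of all 27025 promoters and 7.17% of the 17491 of protein-coding genes. The ETS motif CCGGAAG was in 24.6% against 9.93% and 12.9%, and the YY1 motif AAGATGGC in 14.5% against 3.19% and 3.57%. The 3 promoters below, chosen after their values were seen, belong to a member that rose (Ndufs6), one that fell (Sdha) and the member with the highest value after dTAG-13 alone (Atp5e). Each is the 120 bases before the start, on the minus strand of GRCm38.p6, and capitals mark the NRF1 motif in the first and second and the ETS motif in the last, on either strand.
Ndufs6, chr13:73328483-73328602: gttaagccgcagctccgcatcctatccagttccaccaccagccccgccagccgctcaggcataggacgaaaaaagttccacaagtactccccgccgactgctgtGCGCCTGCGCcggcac
Sdha, chr13:74350241-74350360: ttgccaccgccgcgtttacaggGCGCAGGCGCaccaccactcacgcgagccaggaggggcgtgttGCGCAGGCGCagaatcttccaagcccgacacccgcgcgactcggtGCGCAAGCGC
Atp5e, chr2:174464102-174464221: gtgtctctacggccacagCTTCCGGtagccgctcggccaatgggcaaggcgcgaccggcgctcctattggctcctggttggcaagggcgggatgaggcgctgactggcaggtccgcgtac
After dTAG-13 in doxycycline-treated cells the median was 0.43 over the 17 tested members with an NRF1 match and 0.46 over the 47 without, 0.47 over 16 with an ETS match and 0.44 over 48 without, and 0.50 over 10 with a YY1 match and 0.44 over 54 without. After dTAG-13 alone the medians with and without a match were 0.19 and 0.23 for NRF1, 0.21 and 0.20 for ETS and 0.30 and 0.20 for YY1. For both agents against dTAG-13 alone they were 0.14 and 0.14 for NRF1, 0.14 and 0.13 for ETS and 0.08 and 0.15 for YY1. These differences were not tested.

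Complex I, the NADH dehydrogenase, has 38 tested nuclear members, of which 31 rose and 1 fell after dTAG-13 alone and 35 rose and 1 fell after dTAG-13 in doxycycline-treated cells. These counts stand beside 30.0% and 30.7% of all tested genes called higher in those comparisons, and 32.1% and 33.4% lower. Ndufs6, an accessory subunit of the electron input module, was counted at 63.0, 60.6 and 58.3 CPM in the control libraries, 52.8, 56.0 and 53.4 with doxycycline, 78.3, 74.1 and 76.1 with dTAG-13 and 85.0, 81.6 and 81.4 with both agents. All 4 groups were separate, with doxycycline lowest and both agents highest. It rose by 0.33 ± 0.04 after dTAG-13 alone (edgeR adjusted p = 5.73e-10) and by 0.61 ± 0.04 in doxycycline-treated cells, an interaction of 0.28 ± 0.05. Its rise against dTAG-13 alone, 0.12 ± 0.04, was lost without replicate 1 with both agents or replicates 2 or 3 with dTAG-13 (edgeR adjusted p up to 0.113).

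The nuclear complex I members with the highest level per kilobase were Ndufa4, at 377 CPM per kb, and the accessory subunit Ndufb9, at 325. Ndufa4 was counted at 139, 141 and 149 CPM in the control libraries, 143, 144 and 148 with doxycycline, 199, 182 and 189 with dTAG-13 and 221, 214 and 212 with both agents. Its control and doxycycline libraries overlapped, the dTAG-13 libraries lay above both and those with both agents higher still, with 0.41 ± 0.03 and 0.57 ± 0.03 in the 2 dTAG-13 comparisons. Ndufb9 showed the same order, with 0.42 ± 0.03 and 0.57 ± 0.03. Ndufa10, an accessory subunit of the membrane arm, went the other way, and was counted at 116, 116 and 121 CPM in the control libraries, 119, 125 and 116 with doxycycline, 104, 106 and 105 with dTAG-13 and 113, 109 and 109 with both agents. Its dTAG-13 libraries lay below control, at -0.16 ± 0.03 (edgeR adjusted p = 1.87e-05), and those with both agents below doxycycline, at -0.13 ± 0.03 (edgeR adjusted p = 0.000488).

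Ndufa6 was the complex I member with the highest value for doxycycline alone, and was counted at 19.4, 18.5 and 18.0 CPM in the control libraries, 23.0, 23.3 and 21.4 with doxycycline, 22.3, 25.0 and 22.2 with dTAG-13 and 30.7, 29.8 and 27.6 with both agents. It rose in all 4 pairwise comparisons, by 0.28 to 0.38, and its interaction of 0.06 ± 0.09 did not pass the test. Ndufa8 had the lowest called value for doxycycline alone, -0.31 ± 0.11, although its groups overlapped. That call was lost on leaving out any of 7 libraries, among them control replicates 1 and 2 and doxycycline replicates 1 and 2 (edgeR adjusted p up to 0.163). Ndufb6 had the highest value after dTAG-13 in doxycycline-treated cells, 0.74 ± 0.08, from 63.9, 70.2 and 74.2 CPM with doxycycline to 119.7, 109 and 119 with both. Ndufv2, a core iron-sulfur subunit, rose by 0.31 ± 0.03 and 0.43 ± 0.03 in the 2 dTAG-13 comparisons. Its interaction of 0.12 ± 0.04 was the lowest called in complex I and that of Ndufa12, 0.42 ± 0.13, the highest. Each of these interaction calls was lost on leaving out any of 9 of the 12 libraries, in which edgeR adjusted p reached 0.216 for Ndufv2 and 0.0959 for Ndufa12. For Ndufv2 those kept were without doxycycline replicate 3 or replicates 1 or 3 with both agents, and for Ndufa12 without doxycycline replicate 2, replicate 3 with both agents or dTAG-13 replicate 1.

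The related genes Ndufb4 and Ndufb4c share sequence: every 50-base stretch of the Ndufb4c transcript occurs in another annotated transcript, and 37.0% of those of Ndufb4. Ndufb4 had the highest called value in complex I after dTAG-13 alone, 0.50 ± 0.16, at only 4.74, 3.70 and 4.05 CPM in control and 8.07, 4.54 and 4.99 with dTAG-13, which overlapped. Its call was lost without control replicate 2 or 3 or dTAG-13 replicate 1 (edgeR adjusted p up to 0.243). Ndufb4c, at 26.5, 23.4 and 26.1 CPM with dTAG-13 and 32.4, 32.8 and 31.2 with both, had the highest complex I value against dTAG-13 alone, 0.34 ± 0.06. Values of both are uncertain, since reads could be split between copies.

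Complex II, the succinate dehydrogenase, has 4 nuclear members, of which Sdhb and Sdhc rose and Sdha fell in both dTAG-13 comparisons. Sdha, its flavoprotein and catalytic subunit, was counted at 315, 308 and 298 CPM in the control libraries, 287, 292 and 289 with doxycycline, 251, 241 and 238 with dTAG-13 and 231, 222 and 241 with both agents. The libraries with dTAG-13 lay below all without it. Sdha fell by 0.33 ± 0.03 after dTAG-13 alone (edgeR adjusted p = 1.04e-13) and by 0.32 ± 0.03 in doxycycline-treated cells (edgeR adjusted p = 3.26e-13). The interaction was 0.01 ± 0.04, with a 95% interval from -0.06 to 0.09. Its smaller fall with doxycycline alone, -0.08 ± 0.03, was lost without control replicate 1 or 2 or doxycycline replicate 1 or 2 (edgeR adjusted p up to 0.119).

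Sdhb, the iron-sulfur subunit, was counted at 104, 110.3 and 108 CPM in the control libraries, 101, 102 and 104 with doxycycline, 120.5, 115 and 115 with dTAG-13 and 127, 124 and 127 with both agents. All 4 groups were separate, with doxycycline lowest and both agents highest. It rose by 0.12 ± 0.03 and 0.29 ± 0.03 in the 2 dTAG-13 comparisons, and its rise against dTAG-13 alone (0.11 ± 0.03) was lost without dTAG-13 replicate 3 (edgeR adjusted p = 0.0506). Sdhc, a membrane anchor, was counted at 156, 155 and 158 CPM in the control libraries, 154, 158 and 154 with doxycycline, 170.4, 171 and 177 with dTAG-13 and 179, 179.8 and 177 with both agents, and rose by 0.14 ± 0.03 and 0.20 ± 0.03. Control and doxycycline overlapped and the other groups stood above them. Sdhd, the other anchor, was counted at 0.794 to 1.77 CPM in every library, and passed no test, while groups overlapped. A low count limits what can be seen for Sdhd: its SE was 0.24 after dTAG-13 alone. Its count lay far below those of Sdhb and Sdhc, and whether that reflects its mRNA level or how reads were assigned was not tested.

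All 8 tested complex III members, the cytochrome bc1 complex, rose after dTAG-13 in doxycycline-treated cells, and all 8 had a called positive interaction. Of all tested genes, 30.7% rose in that comparison and 13.2% had a called positive interaction. With the correction for length and GC, the interaction calls of Uqcr10 (0.09, edgeR adjusted p = 0.174), Uqcrq and Uqcrh were lost. Uqcr10, a small accessory subunit, was counted at 88.3, 87.6 and 87.4 CPM in the control libraries, 82.9, 84.8 and 88.1 with doxycycline, 113, 103 and 114 with dTAG-13 and 131, 133 and 126 with both agents. Control and doxycycline overlapped, dTAG-13 lay above them and both agents above dTAG-13. It had the highest complex III value in 4 of the 5 contrasts, with 0.33 ± 0.04 after dTAG-13 alone, 0.61 ± 0.04 in doxycycline-treated cells and an interaction of 0.28 ± 0.05 (edgeR adjusted p = 4.29e-05). Uqcrq, at 385 CPM per kb the highest of the complex, rose by 0.31 ± 0.03 and 0.56 ± 0.03. With doxycycline alone Uqcrq fell by 0.09 ± 0.03, a call lost without doxycycline replicate 1 (edgeR adjusted p = 0.135).

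Uqcrc1, a core subunit of complex III, was counted at 294, 298 and 285 CPM in the control libraries, 274, 272 and 272 with doxycycline, 273, 277 and 279 with dTAG-13 and 295, 296 and 290.3 with both agents. Its control libraries and those with both agents overlapped, and the other 2 groups lay below them. It fell by 0.08 ± 0.02 after dTAG-13 alone and rose by 0.11 ± 0.02 in doxycycline-treated cells, an interaction of 0.19 ± 0.03 (edgeR adjusted p = 3.78e-05). Scaled by total counts alone, its value after dTAG-13 alone turned to 0.01. Cyc1, the cytochrome c1, had the lowest value with doxycycline alone, -0.11 ± 0.03, although a library of each group overlapped. It rose from 302, 300.1 and 315 CPM with doxycycline to 392, 388 and 391 with both, by 0.35 ± 0.03. Uqcrh, the hinge subunit, had the lowest interaction of the complex, 0.16 ± 0.05. That call was lost on leaving out any of 5 libraries, which were control replicate 1, doxycycline replicates 1 and 3, doxycycline plus dTAG-13 replicate 3 and dTAG-13 replicate 2 (edgeR adjusted p up to 0.119).

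Complex IV, the cytochrome c oxidase, had 12 tested nuclear members, of which 11 rose after dTAG-13 alone and 12 in doxycycline-treated cells. The shares of all tested genes called higher in those comparisons were 30.0% and 30.7%, and of the shortest 25% of genes 50.2% and 60.6%. Cox4i1, the main isoform of subunit 4 and at 635 CPM per kb the highest of the complex, was counted at 432, 419.9 and 405 CPM in the control libraries, 388, 397 and 393 with doxycycline, 534, 502 and 516 with dTAG-13 and 586, 579 and 603 with both agents. All 4 groups were separate, in the order doxycycline, control, dTAG-13 and both agents. It was the sole nuclear complex IV member called for doxycycline alone, at -0.09 ± 0.02 (edgeR adjusted p = 0.00221), a call lost under scaling by total counts (-0.06, edgeR adjusted p = 0.0642). It rose by 0.30 ± 0.02 and 0.59 ± 0.02 in the 2 dTAG-13 comparisons. Its interaction was 0.28 ± 0.03 (edgeR adjusted p = 5.11e-08). Cox7c had the highest values of the complex in both, 0.50 ± 0.13 and 0.89 ± 0.13, and was counted at 23.5, 19.9 and 18.2 CPM in the control libraries, 16.7, 18.2 and 22.1 with doxycycline, 30.8, 24.9 and 31.8 with dTAG-13 and 34.8, 35.6 and 34.9 with both agents. Control and doxycycline overlapped, and dTAG-13 and then both agents lay above them.

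Cox8a had the lowest called value of complex IV after dTAG-13 alone, at 0.07 ± 0.03, with overlapping groups. Its call was lost on leaving out any of 9 libraries, namely all 3 control libraries, doxycycline replicates 1 and 3, doxycycline plus dTAG-13 replicates 1 and 3, and dTAG-13 replicates 1 and 3 (edgeR adjusted p up to 0.512). In doxycycline-treated cells Cox8a rose by 0.22 ± 0.03. Cox7b rose by 0.42 ± 0.03 and 0.62 ± 0.03, and had the highest called value of the complex against dTAG-13 alone, 0.19 ± 0.03. Cox7a2l, a factor that joins complexes III and IV, rose by 0.19 ± 0.04 and 0.21 ± 0.04, the latter the lowest of the complex. Cox5a had the lowest called interaction of the complex, 0.13 ± 0.04, which was lost without control replicate 2, doxycycline replicate 1, replicate 1 with both agents or dTAG-13 replicates 2 or 3 (edgeR adjusted p up to 0.14).

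Complex V, the ATP synthase, had 17 tested nuclear members, of which 9 rose and 2 fell after dTAG-13 alone and 15 rose in doxycycline-treated cells. Of all tested genes, 62.1% were called after dTAG-13 alone, 30.0% higher and 32.1% lower. The share of complex V members called there was near that of all genes. In doxycycline-treated cells 64.1% of all tested genes were called, 30.7% higher. Atp5e, the epsilon subunit of the central stalk whose promoter is shown above, was counted at 98.9, 99.8 and 87.7 CPM in the control libraries, 88.3, 87.3 and 93.8 with doxycycline, 153, 134 and 147 with dTAG-13 and 165, 151 and 161 with both agents. The libraries with dTAG-13 lay above all without it. Atp5e rose by 0.60 ± 0.07 after dTAG-13 alone (edgeR adjusted p = 2.31e-05), the highest value of any member, and by 0.82 ± 0.07 in doxycycline-treated cells. Atp5d, the delta subunit of the same stalk, was counted at 192, 188 and 206 CPM in the control libraries, 188, 192 and 187 with doxycycline, 163, 168 and 166 with dTAG-13 and 192, 198 and 173 with both agents. The dTAG-13 libraries were the lowest and the other groups overlapped. It fell by 0.23 ± 0.04 after dTAG-13 alone (edgeR adjusted p = 0.00015) and did not pass the test in doxycycline-treated cells (-0.01 ± 0.04), an interaction of 0.22 ± 0.06.

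The catalytic head of ATP synthase is built from alpha (Atp5a1) and beta (Atp5b) subunits. Atp5b was counted at 1743, 1743 and 1709 CPM in the control libraries, 1639, 1633 and 1649 with doxycycline, 1734, 1697 and 1706 with dTAG-13 and 1784, 1738 and 1756 with both agents. Its doxycycline libraries were the lowest, at -0.08 ± 0.02 (edgeR adjusted p = 0.000373), and its value after dTAG-13 alone, -0.02 ± 0.02, did not pass the test and turned to 0.08 under scaling by total counts. That scaling also ended the doxycycline call (-0.04, edgeR adjusted p = 0.0668). In doxycycline-treated cells it rose by 0.10 ± 0.02, a call lost with the correction for length and GC (0.035, edgeR adjusted p = 0.0681). Atp5a1 was counted at 1454, 1450.0 and 1426 CPM in the control libraries, 1341, 1329 and 1343 with doxycycline, 1265, 1266 and 1275 with dTAG-13 and 1344, 1321 and 1336 with both agents. Every treated group lay below control, with -0.19 ± 0.02 after dTAG-13 alone (edgeR adjusted p = 2.48e-12). In doxycycline-treated cells it did not pass the test after dTAG-13, at -0.0044.

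Atp5g2, one of the genes for the c ring, had the highest interaction of complex V, 0.54 ± 0.12, at 14.6, 13.1 and 12.8 CPM in control, 10.6, 11.4 and 11.8 with doxycycline, 15.8, 11.8 and 12.3 with dTAG-13 and 15.8, 16.3 and 16.1 with both. Its fall with doxycycline alone, -0.27 ± 0.09, was lost without control replicate 1 or doxycycline replicate 1 or 2 (edgeR adjusted p up to 0.118). Its rise against dTAG-13 alone, 0.27 ± 0.08, was lost without replicate 2 or 3 with both agents, or the same numbers with dTAG-13 (edgeR adjusted p up to 0.143). Atp5l, a subunit of the membrane part, had the highest value of the complex in doxycycline-treated cells, 0.88 ± 0.11, at 4.69, 6.07 and 5.14 CPM with doxycycline and 10.4, 10.1 and 8.97 with both. Its rise against dTAG-13 alone, 0.41 ± 0.11, was lost without dTAG-13 replicate 2 (edgeR adjusted p = 0.0601). Of the 50-base stretches of these transcripts, 87.4% for Atp5g2 and 84.8% for Atp5l occur in other annotated transcripts, so both are uncertain.

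**Figure D5:**
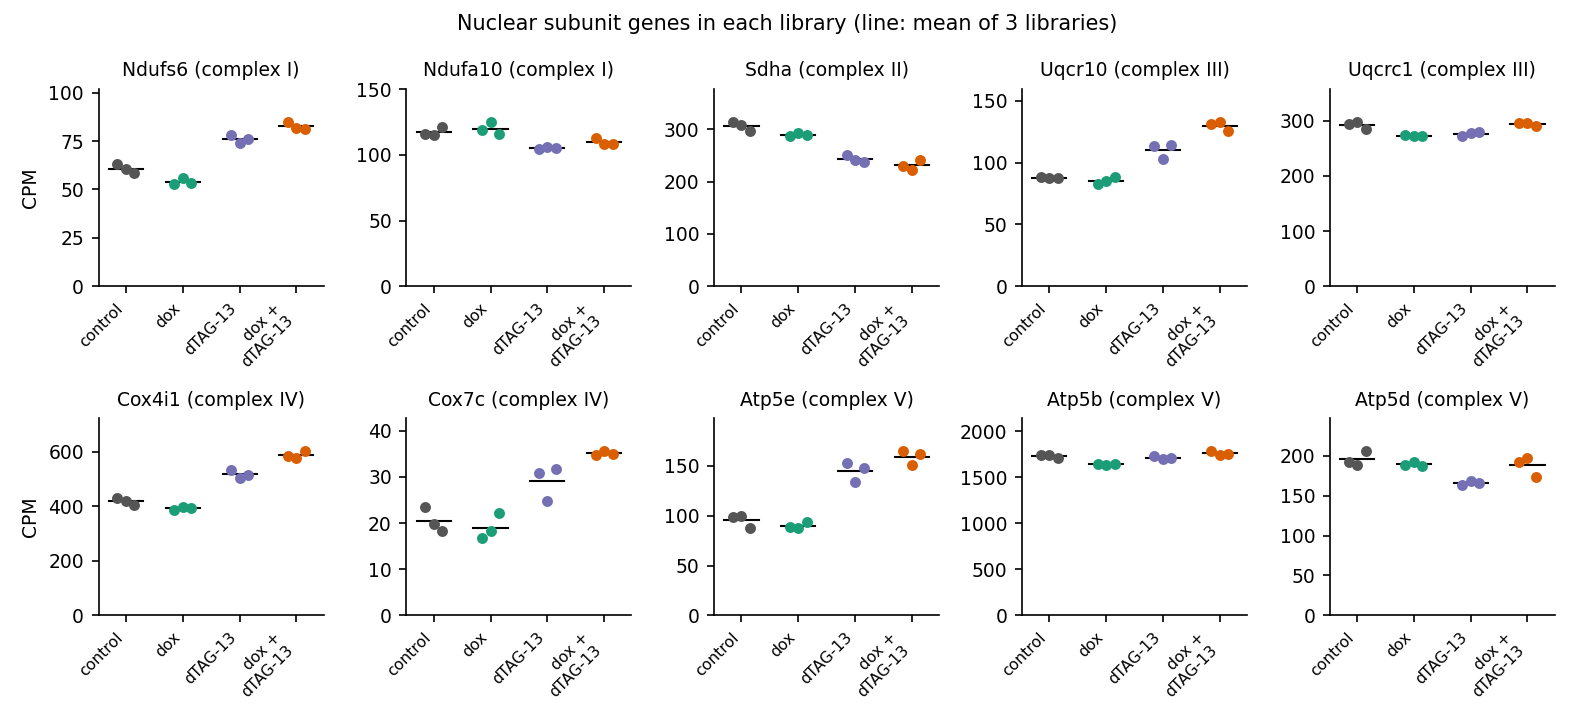
Level of 10 nuclear subunit genes in each library, in CPM, with the mean of the 3 libraries of a group as a line. Ndufs6, Uqcr10, Cox4i1, Cox7c and Atp5e are higher in both groups with dTAG-13, Ndufa10 and Sdha are lower in both, and Atp5d is lowest with dTAG-13 alone.

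The correction for length and GC changed several of these nuclear calls. After dTAG-13 alone, Cox8a (-0.12) and Cox5a (-0.16) turned negative and were called lower. Sdhb (-0.0004), Ndufa4 (-0.03), Uqcrh (-0.02) and Cox7a2l (-0.0012) turned slightly negative and were no longer called. Ndufa6, Ndufb4, Ndufb6, Ndufb4c, Ndufs6, Ndufv2, Uqcrq, Cox7c, Cox7b and Atp5l lost their calls too, while Ndufb9 (0.24), Uqcr10 (0.08), Cyc1 (0.08), Cox4i1 (0.16), Sdhc (0.08) and Atp5e (0.34) remained higher. Sdha (-0.33), Ndufa10 (-0.21), Uqcrc1 (-0.10), Atp5a1 (-0.17) and Atp5d (-0.32) remained lower. In doxycycline-treated cells Ndufs6 (0.20), Ndufb6 (0.31), Uqcr10 (0.17), Cox4i1 (0.32), Cox7c (0.37), Cox7b (0.16), Atp5e (0.37) and Atp5l (0.41) remained higher after dTAG-13. Cox8a and Cox5a turned negative there and were called lower, and Ndufa4, Ndufa6, Uqcrh and Cox7a2l turned negative and were no longer called. Ndufa8, Atp5b and Atp5g2 lost their calls, and Atp5d was called lower (-0.18, edgeR adjusted p = 0.00925). Atp5b (-0.08) and Atp5g2 (-0.22) became called lower after dTAG-13 alone. Against dTAG-13 alone, the rises of Sdhb, Ndufa4, Ndufb9, Ndufs6, Uqcrq, Uqcrh, Cox8a, Atp5g2 and Atp5d with both agents lost their calls. Scaling by total counts ended those of Sdhb, Ndufs6, Uqcrc1, Atp5a1 and mt-Co3 in that comparison, and the falls of mt-Nd2 and mt-Nd6 after dTAG-13 alone.

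The 8 nuclear members that failed the filter include isoforms known from other tissues. Cox8c had 0 reads in every library, which allows, at 3 counts, up to 0.135 CPM in the smallest library. Cox4i2, Cox6b2 and Cox8b stayed at or under 0.103 CPM, Cox7b2 and Ndufa4l2 under 0.3, and Cox7a1, the muscle isoform of subunit 7a, reached at most 0.472 CPM. Uqcr11, an accessory subunit of complex III that is widely expressed, reached at most 0.0891 CPM, and the reason for so low a count was not tested. Cox6a2, known as the muscle isoform of subunit 6a, was by contrast counted at 66.2, 69.2 and 65.8 CPM in the control libraries, 65.5, 69.2 and 65.6 with doxycycline, 89.0, 81.3 and 84.8 with dTAG-13 and 89.8, 91.9 and 89.2 with both agents. The libraries with dTAG-13 lay above those without it.

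Shared sequence set the mitochondrial genes apart. At least 50% of the 50-base stretches of 7 mitochondrial members occur in other annotated transcripts, against 4 of 86 nuclear members, and how the counting treated such reads is not given in the sources used here. The 4 mitochondrial members with no 50-base stretch shared, mt-Nd1, mt-Atp8, mt-Nd6 and mt-Cytb, had a median of -0.26 after dTAG-13 alone, with 3 called lower, and 0.52 in doxycycline-treated cells, with 3 called higher. With doxycycline alone the median of these 4 was -0.14, with none called higher and 2 lower, while the 7 members with at least 50% shared had 0.11 and the unshared nuclear members -0.08. The order of the mitochondrial and nuclear medians in that comparison thus turned when only members with no 50-base stretch shared were taken. That set of 4 holds mt-Atp8, which overlaps mt-Atp6 by 43 bases, and mt-Nd6, which overlaps mt-Nd5. An overlap under 50 bases does not count as a shared stretch, so the values of mt-Atp8 and mt-Nd6 stay uncertain. The 31 tested nuclear members with none shared had a median of 0.17 after dTAG-13 alone, with 20 called higher and 4 lower. In doxycycline-treated cells their median was 0.43, with 26 called higher and 2 lower after dTAG-13. The pseudogene Ndufs5-ps, left out by the rule, had a mean of 1773 reads, against 954 for Ndufs5, so the value of that gene is uncertain. In the RefSeq annotation 18 nuclear members overlap another protein-coding gene, among them Uqcrq (Gdf9), Atp5d (Cbarp), Atp5a1 (Haus1), Ndufv2 (Ankrd12), Ndufb4c (Mroh5) and Cox6a2 (Itgad), and their values are uncertain for that reason.

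Genes that build or serve the complexes were counted from lists of known function. These counts stand beside 62.1% of all tested genes called after dTAG-13 alone, 30.0% higher and 32.1% lower. In doxycycline-treated cells the shares were 64.1%, 30.7% and 33.4%. For doxycycline alone they were 33.5%, 14.8% and 18.7%, and for both agents against dTAG-13 alone 20.4%, 10.7% and 9.64%. Counts with the correction for length and GC stand beside the corrected counts of all tested genes given above. Of 47 tested assembly factors, 28 rose and 4 fell after dTAG-13 alone (median 0.19), and 34 rose and 3 fell in doxycycline-treated cells (median 0.32). Doxycycline alone gave none higher and 9 lower, and doxycycline with dTAG-13 against dTAG-13 gave 7 higher and 1 lower. The 9 lower are near the share of all tested genes called lower in that comparison. The complex IV factor Coa4 had the highest called value after dTAG-13 alone, 0.57 ± 0.11, and Cox10, the heme O synthase, the lowest, -0.38 ± 0.04. In doxycycline-treated cells the highest called value was that of Pet100, 0.92 ± 0.15 and the lowest that of Coa5, -0.30 ± 0.03, both assembly factors of complex IV. With the correction for length and GC the counts were 14 higher and 4 lower after dTAG-13 alone and 22 and 3 in doxycycline-treated cells.

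Of 27 tested genes of mitochondrial DNA maintenance, transcription and RNA processing, 13 rose and 7 fell after dTAG-13 alone and 14 rose and 7 fell in doxycycline-treated cells. Tfb1m, an rRNA methyltransferase, had the highest called value after dTAG-13 alone, 0.55 ± 0.11, and Elac2, which cuts the 3′ ends of tRNAs out of the long transcripts, the lowest, -0.49 ± 0.05. In doxycycline-treated cells the partners Slirp and Lrpprc, which bind and stabilise mitochondrial mRNAs, had the highest and the lowest called values, 0.56 ± 0.05 and -0.43 ± 0.03. Doxycycline alone gave 3 higher and 4 lower, and doxycycline with dTAG-13 against dTAG-13 gave 3 higher and 3 lower. These doxycycline counts are near the shares of all tested genes given above. With the correction for length and GC the counts were 8 higher and 9 lower after dTAG-13 alone and 7 and 7 in doxycycline-treated cells.

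Of 10 regulators of respiratory genes, 1 rose and 6 fell after dTAG-13 alone and 1 rose and 5 fell in doxycycline-treated cells. Esrra, a nuclear receptor of these genes, rose in both, by 0.22 ± 0.04 and 0.40 ± 0.04. The coactivators Ppargc1b, at -0.73 ± 0.09 after dTAG-13 alone, and Pprc1, at -0.56 ± 0.03 in doxycycline-treated cells, had the lowest called values. With the correction for length and GC 2 regulators were higher and 7 lower after dTAG-13 alone, and 2 and 6 in doxycycline-treated cells. Of 21 genes of electron carriers, coenzyme Q synthesis and related steps, 11 rose and 4 fell after dTAG-13 alone and 12 rose and 3 fell in doxycycline-treated cells. Etfa, which passes electrons from fatty acid oxidation, had the highest called value in the first, 0.37 ± 0.05, and Chchd4, an import receptor of the intermembrane space, in the second, 0.53 ± 0.04. Gpd2, the mitochondrial glycerol phosphate dehydrogenase, had the lowest called value in both, -0.37 ± 0.03 and -0.41 ± 0.03. With the correction 9 genes of this list were higher and 5 lower after dTAG-13 alone, and 8 and 4 in doxycycline-treated cells.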

How the data were processed

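RNA-seq counts were analysed for 12 libraries, 3 in each of 4 groups, taken from the labels. The authors deposited raw read counts per Entrez gene ID with no normalization, aligned with Subread per the file headers. The submitters' processing notes also name featureCounts, bcl2fastq 2.17 and mm10. How the counting treated strand and multi-mapping reads, and with which annotation, is not given in the sources used here.

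Symbols came from RefSeq (GRCm38.p6), and transcript lengths, GC content and shared 50-base stretches from GENCODE M21. In R 4.3.3 with edgeR 4.0.16, genes were filtered by filterByExpr, scaled with TMM (trimmed mean of M-values) factors, and fitted over all 12 libraries with a quasi-likelihood model of group means. Genes with an adjusted p (Benjamini-Hochberg) under 0.05 were called. A correction took out a spline trend of log2 counts with length and GC. DESeq2 1.42.0, other scalings, other filters and leaving out each library were also run. On simulated data for dTAG-13 against control with 12910 genes, the test recovered 59 of 100 genes changed 1.25-fold and 93 of 100 changed 2-fold. It also called 6 unchanged genes. The simulation gave every gene the same dispersion and changed no other genes, unlike these data, so its rates do not carry over to them.

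Members and lists were chosen with earlier results of these data known. Genes named are all mitochondrial and complex II members, and per nuclear complex those with the highest level and with the highest and lowest called value in each contrast, plus members that failed the filter. No column was left unmapped. List genes Coa1 and Fastkd4 were not matched.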

Additional observations from a re-analysis of the deposited data

Results flagged for a closer look

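For 31 of the members described above, the effect of dTAG-13 differed between cells with and without doxycycline by edgeR's interaction test (adjusted p under 0.05 over all 12910 genes). The difference of log2 fold changes, with doxycycline minus without, was positive for each of them, as it was for all 45 nuclear and 11 mitochondrial members called in that test. Among mitochondrial genes it was 0.873 for mt-Nd1, 0.693 for mt-Nd2, 0.411 for mt-Co1, 0.497 for mt-Co2, 0.446 for mt-Atp6, 0.394 for mt-Nd3, 0.895 for mt-Nd4l, 0.716 for mt-Nd4, 0.803 for mt-Nd5, 0.807 for mt-Nd6 and 0.749 for mt-Cytb. In complexes I and II it was 0.175 for Sdhb, 0.166 for Ndufa4, 0.1498 for Ndufb9, 0.372 for Ndufb4c, 0.283 for Ndufs6, 0.416 for Ndufa12 and 0.121 for Ndufv2. In complex III it was 0.249 for Uqcrq, 0.282 for Uqcr10, 0.209 for Cyc1, 0.188 for Uqcrc1 and 0.160 for Uqcrh, and in complex IV 0.282 for Cox4i1, 0.151 for Cox8a, 0.200 for Cox7b and 0.127 for Cox5a. In complex V it was 0.117 for Atp5b, 0.182 for Atp5a1, 0.539 for Atp5g2 and 0.222 for Atp5d. The calls of Ndufa12, Ndufv2, Uqcrh and Cox5a each depended on single libraries, as given above. With the correction for length and GC, 10 of these calls were lost while the value stayed positive, those of mt-Nd3 (0.2611), Sdhb (0.1006), Ndufa4 (0.0088), Ndufb9 (0.0138), Ndufb4c (0.1738), Ndufs6 (0.1228), Ndufv2 (0.0938), Uqcrq (0.0854), Uqcr10 (0.0896) and Atp5d (0.1337). The calls of Uqcrh (-0.0088), Cox8a (-0.0082) and Cox5a (-0.0032) were lost as well, with values that turned slightly negative. Under scaling by total counts 10 calls were lost, those of Sdhb, Ndufa4, Ndufb9, Ndufa12, Ndufv2, Uqcrh, Cox8a, Cox5a, Atp5b and Atp5d. That scaling also moved all tested genes from 1705 positive and 1245 negative to 818 and 2424. No group holds more than 3 libraries, so single libraries were not screened for outlying values of a gene. Library pairs were compared over all genes by chi-square per degree of freedom of their counts. With both agents it was 8.45 and 8.80 for pairs with replicate 3 and 2.75 for the other pair. The same pairs gave 5.74, 5.05 and 2.43 with doxycycline and 4.68, 4.48 and 2.46 in control. With dTAG-13 they gave 3.08, 3.34 and 3.24.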

How the results depend on the processing

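The correction for length and GC content changed most: for the 225 values of named genes, 153 kept their direction and side of the threshold, 9 gained a call, 36 lost it and 27 reversed, and the cause was not tested. With it, the nuclear minus mitochondrial median was -0.0483 for doxycycline against control, 0.7428 after dTAG-13 alone and 0.1973 in doxycycline-treated cells. It called 33 nuclear and 13 mitochondrial members after dTAG-13 alone, 46 and 6 in doxycycline-treated cells, 21 nuclear members against dTAG-13 alone and 22 in the interaction. Genes that reversed after dTAG-13 alone had values of -0.1861 for mt-Co3, -0.7304 for mt-Nd3, -0.0004 for Sdhb, -0.0292 for Ndufa4, -0.0225 for Uqcrh, -0.1154 for Cox8a, -0.0012 for Cox7a2l and -0.1613 for Cox5a. In doxycycline-treated cells those values were -0.0306 for mt-Nd1, -0.0974 for mt-Nd2, -0.2510 for mt-Co2, -0.6642 for mt-Atp8, -0.3727 for mt-Atp6, -0.0569 for mt-Co3, -0.4693 for mt-Nd3, -0.3053 for mt-Nd4l, -0.0189 for mt-Nd4, -0.1953 for mt-Nd6, -0.0204 for Ndufa4, -0.1205 for Ndufa6, -0.0314 for Uqcrh, -0.1236 for Cox8a, -0.0449 for Cox7a2l and -0.1645 for Cox5a. In the interaction they were -0.0088 for Uqcrh, -0.0082 for Cox8a and -0.0032 for Cox5a. A reversal here is a change of sign, and many of these values were not called with the correction. After dTAG-13 alone Sdhb, Ndufa4, Uqcrh and Cox7a2l were not called. In doxycycline-treated cells only mt-Co2, mt-Atp8, mt-Atp6, mt-Nd3, mt-Nd4l, Cox8a and Cox5a of those reversed were called lower. None of the reversed interaction values was called. Scaling by total counts alone called 14 nuclear members for doxycycline against control and 27 in the interaction, and reversed Uqcrc1 (0.0113) and Atp5b (0.0754) after dTAG-13 alone. By DESeq2, 216 of the 225 values were unchanged in direction and call.

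Leaving out 1 library at a time, which gave 2583 unchanged values of named genes, 33 gained and 84 lost calls, gave 59 to 65 nuclear calls after dTAG-13 alone, 72 to 75 in doxycycline-treated cells, 34 to 45 against dTAG-13 alone, 35 to 51 in the interaction and 14 to 29 for doxycycline alone. Mitochondrial calls were 7 to 10, 12, 12 to 13, 11 to 12 and 6 to 9. The difference of medians was 0.3272 to 0.5037 after dTAG-13 alone, -0.0599 to 0.0121 in doxycycline-treated cells, -0.6607 to -0.5319 against dTAG-13 alone, -0.5779 to -0.4042 in the interaction and -0.2167 to -0.1122 for doxycycline alone. The lowest value after dTAG-13 alone and -0.4042 in the interaction came without control replicate 3. In doxycycline-treated cells the sign turned without doxycycline replicate 3 (0.0121) or replicate 2 with both agents (0.0015).

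Libraries with the same number did not deviate together (r from -0.0208 to 0.0801 over 18 pairs), and 3 of 12 correlated best with their own number. With the replicate block, 63 nuclear and 7 mitochondrial members were called after dTAG-13 alone, 73 and 12 in doxycycline-treated cells, 40 and 13 against dTAG-13 alone, 42 and 11 in the interaction, and 20 and 7 for doxycycline alone. With the replicate block the differences of medians were 0.4278, -0.0153, -0.5801, -0.4922 and -0.1723 in that order. Depth limits the precision for genes counted near 1 CPM such as Sdhd, and 1 culture per group limits all comparisons.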
